A study of Mus musculus with 11 samples.

Results

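Expression of *Ick* (the older symbol of *Cilk1*), of its activating kinase gene *Cdk20*, and of the kinesin-2 genes *Kif3a*, *Kif3b* and *Kifap3* was examined in developing mouse molars. These 5 genes were taken by symbol from the 16755 genes listed and not by a threshold on their values, though earlier results of these data were known. RNA-sequencing had been performed on maxillary molar tooth germs at E14.5 from 3 genotypes on a C57BL/6 background, with n = 6 per biological replicate. There were 4 wild-type libraries, 4 Cilk1-/- libraries and 3 libraries of Cilk1-/-;PCS1-MRCS1△/△ embryos, called compound mutants here. Cilk1-/- mice came from Cilk1 fl/fl mice crossed with EIIa-Cre, a germline deleter, so exon 6 of *Cilk1* was lost in every tissue and not in one cell type. Compound mutants carried that same deletion plus the homozygous loss of the region from PCS1 to MRCS1, which holds oral enhancers of *Shh*. There was no group with the enhancer deletion alone. Embryos were littermates of mixed sex, and whether the 6 of a replicate were germs or embryos is not given in the sources used here.

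Cilk1 is a serine/threonine kinase of primary cilia, the single antenna-like organelles through which cells receive Hedgehog signals. Cilia are built by intraflagellar transport, in which kinesin-2 carries protein trains from the base to the tip and dynein-2 carries them back. Kinesin-2 is a trimer of the motor subunits Kif3a and Kif3b with the adaptor Kifap3. Cilk1 acts near the tip, where trains are remodelled and turned around, and it is known to phosphorylate Kif3a. Cilk1 itself becomes active when Cdk20 phosphorylates the threonine of a threonine-aspartate-tyrosine (TDY) motif in its activation loop. In tooth germs, Hedgehog signaling passes from the epithelium, the source of Shh, to epithelial and mesenchymal cells that bear cilia.

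The sequences that define the deleted part of *Cilk1* and its 2 phosphorylation links to the other genes are shown first. They were read from the GRCm38 genome and the GENCODE vM21 transcripts, plus strand. In the 14-exon transcript Ick-202, exon 6 spans chr9:78150529-78150661, is 133 bases long, and codes for codons 120 to 164 of 629. It holds the codons of the TDY motif, here in capitals, with the threonine at codon 157 and the tyrosine at codon 159.
Cilk1 exon 6: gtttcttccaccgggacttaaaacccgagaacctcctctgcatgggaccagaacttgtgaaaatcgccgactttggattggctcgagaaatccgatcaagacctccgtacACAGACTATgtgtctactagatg
Exon 6 is not a whole number of codons, and joining exon 5 to exon 7 shifts the reading frame. The end of exon 5 and the start of exon 7 then read to a stop codon (capitals) at codon 128, after 8 codons counted from codon 120. Codon 120 spans the joint and reads ggt with or without exon 6, so only the later ones are changed.
Cilk1 exon 5 end joined to exon 7: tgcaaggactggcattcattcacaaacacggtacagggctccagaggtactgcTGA
That stop lies in exon 7 of 14 and 1218 bases upstream of the last exon junction. For *Kif3a*, the stretch around the threonine codon that ends the capitals is shown, because a threonine near the end of Kif3a is the known Cilk1 site. It is codon 698 of 725 in transcript Kif3a-202, in exon 18 of 19.
Kif3a site: aagttagaaAGGCCACGGACCtccaagggg

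The values were deposited by the authors as log2(value + 1), where the value is read here as FPKM, which is scaled for depth and gene length. Linear values below are that quantity with the log2 and the added 1 undone. Values below 0 in 257 genes do not have this form, so linear values and percentages rest on it as an assumption. Read depth per library is unknown, because these files hold no counts. The median log2 fold change of all genes was between -0.0016 and 0.0032 in the 3 comparisons. Markers of both tooth germ tissues were present in all libraries. The epithelial keratin gene *Krt14* was at 7.79 to 8.18 in wild type on the log2 scale, and 6 genes of dental mesenchyme (such as *Msx1* and *Pax9*) had summed linear values of 617 to 681 there. In Cilk1-/-, *Krt14* was at 8.07 to 8.17 and the mesenchyme sum was 531 to 610. In compound mutant replicates 1 to 3, *Krt14* was at 6.83, 7.75 and 8.14, and the mesenchyme sum was 367, 628 and 463. All 6 mesenchyme genes had log2 fold changes below 0 in both mutants, with medians of -0.24 and -0.50 (-0.30 without compound mutant replicate 1). None of them was called (limma), while 2 and 5 of the 6 had an unadjusted p under 0.05, against 20.7% and 26.7% of all genes. Compound mutant replicate 1 stood apart. The sum of 6 cartilage markers was 664 there against 39.1 and 44.4 in the other compound mutants, 22.5 to 28.0 in wild type and 23.1 to 35.6 in Cilk1-/-. The sum of 8 neuronal markers was 198 there against 33.4 and 61.5, with 18.0 to 23.4 in wild type and 29.6 to 32.3 in Cilk1-/-. For 10 listed markers of motile cilia it was 32.7 there against 8.21 and 8.67, with 6.73 to 7.60 and 6.62 to 8.01, and *Dnah5* was at or near 0 (at most 0.1 on the log2 scale) in every wild-type and Cilk1-/- library. Of the neuronal list, *Tubb3* was called higher in the compound mutant than in wild type (log2 fold change 1.503, adjusted p = 0.0268, limma). The sum of 7 skeletal muscle markers was 4.995 to 6.51 in the compound mutant, 7.96 to 24.3 in wild type and 15.9 to 43.1 in Cilk1-/-, and *Actc1*, *Acta1* and *Myh3* were called lower in the compound mutant than in Cilk1-/-, by log2 fold changes of -2.35, -1.71 and -1.52. None of these 4 calls held with the replicate number as a block. For the 5 genes, log2 fold changes against wild type are therefore also given without compound mutant replicate 1.

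*Ick* was lower in every mutant library than in any wild-type library. On the log2 scale, its wild-type values were 3.47, 3.58, 3.45 and 3.60 in replicates 1 to 4. In Cilk1-/- they were 2.86, 2.72, 2.84 and 2.76, and in the compound mutant 2.67, 2.65 and 2.60. The lowest wild-type library lay well above the highest mutant library, so the groups did not overlap. As linear values, wild-type *Ick* was 10.5 ± 0.599 (SD, n = 4). Cilk1-/- had 5.95 ± 0.318 (SD, n = 4), and the compound mutant had 5.23 ± 0.136 (SD, n = 3). The RNA level of the whole gene in Cilk1-/- was 56.5% ± 3.02 (SD, n = 4) of the wild-type mean, and in the compound mutant it was 49.7% ± 1.30 (SD, n = 3). In these bulk samples, fewer cells expressing a gene and less RNA per cell cannot be told apart. The dental mesenchyme sum was also lower in every Cilk1-/- library and in 2 of 3 compound mutant libraries than in any wild-type library, and the part of this in the *Ick* values was not tested.

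**Figure D1:**
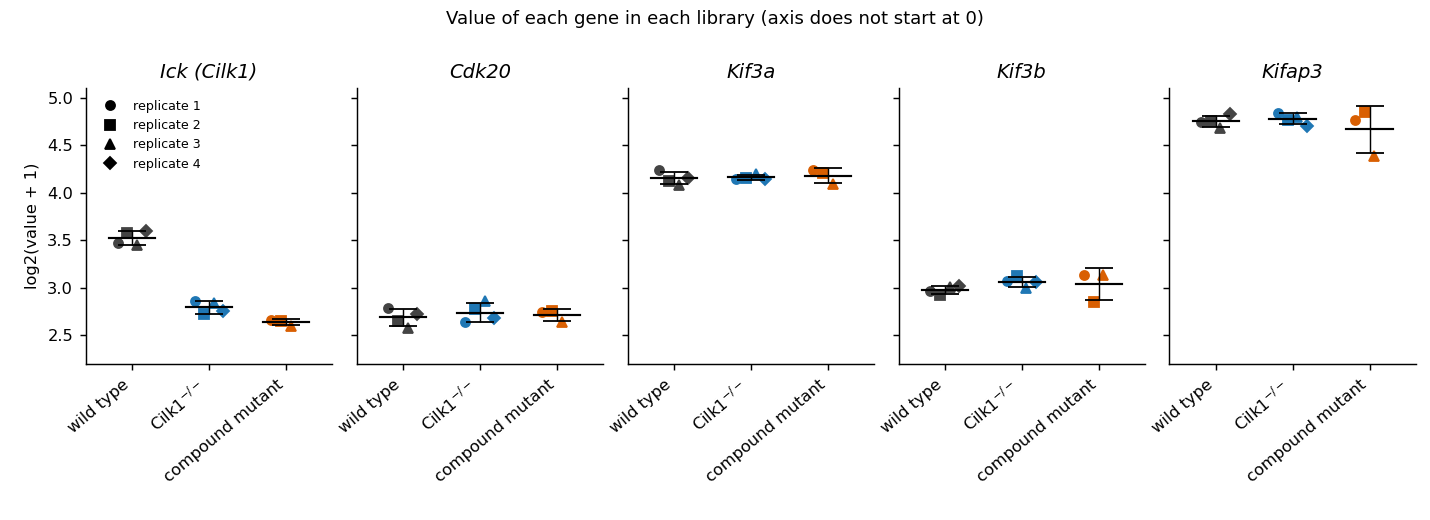
Values of the 5 genes in each of the 11 libraries, as log2(value + 1) on an axis that does not start at 0; points are libraries with a symbol per replicate number, horizontal bars are means and error bars are SD. *Ick* sits at 3.45 to 3.60 in wild type and at 2.60 to 2.86 in the mutants, while the points of the other 4 genes overlap between genotypes.

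The log2 fold change of *Ick* was -0.73 in Cilk1-/- (standard error 0.0501, 95% confidence interval -0.84 to -0.62, adjusted p = 0.000224, limma). It was -0.89 in the compound mutant (standard error 0.0542, interval -1.01 to -0.77, adjusted p = 6.22e-05, limma). Calls required both an adjusted p under 0.05 and a change of 1.5-fold or more, and by this rule 0.215% of all genes were lower in Cilk1-/- while 0.633% were lower in the compound mutant. Groups without overlap, in the lower direction, were more common, at 10.7% and 9.05% of all genes. *Ick* ranked 1 of all genes by p in both comparisons, but 34 and 55 by the size of the fall. The 4 wild-type libraries serve as the reference in each of these comparisons. Because wild-type and Cilk1-/- libraries that share a number vary in opposite directions, p-values that treat them as independent are too small. With the replicate number as a block, *Ick* was still called in Cilk1-/- (adjusted p = 0.0229, where 0.0119% of all genes were called lower) and likewise in the compound mutant (adjusted p = 0.0130, against 0.113%). That block set compound mutant replicates 1 to 3 beside the same numbers of the other genotypes, but their numbers showed no such link. Deviations correlated at 0.14, -0.038 and 0.26 with wild type and at 0.030, 0.039 and -0.12 with Cilk1-/-. The labels give the compound mutants the same extraction wording as the replicates numbered 4. When the compound mutant libraries were placed in block 4, the log2 fold change was -0.90 but the adjusted p was 0.109 (limma). In that fit, 0% of all genes were called in the compound mutant. Without compound mutant replicate 1 the log2 fold change was -0.90 (adjusted p = 0.000302, limma).

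The level of the whole gene was set beside the length that the deletion removes. Exon 6 makes up 2.03% of transcript Ick-202 and 1.15% of all annotated exon sequence of the gene, and 3 of 8 annotated transcripts contain it. The values are summed over the gene and do not show which exons the remaining reads came from. Coverage by exon was not analysed here.

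The labels describe the extraction in 2 wordings, one for replicates 1 to 3 of wild type and Cilk1-/- and another for the replicates numbered 4 and all compound mutants. Within the first, *Ick* was lower by a mean log2 difference of -0.69, and within the second, the single Cilk1-/- library was -0.84 from the single wild-type library. Compound mutants averaged -0.96 from that wild-type library. The fall of *Ick* was thus seen within each set of libraries, although the second set has 1 library of each of those genotypes.

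The compound mutant was next compared with Cilk1-/-. These genotypes differ by the enhancer deletion, but their libraries also differ in extraction wording. Only 1 of the 4 Cilk1-/- libraries has the wording of the compound mutants. All 3 compound mutant values of *Ick* lay below the lowest Cilk1-/- value of 2.72, but by little, since the highest was 2.67. The log2 fold change was -0.16 (interval -0.28 to -0.036), with an adjusted p of 0.125 (limma), so it was not called. Groups did not overlap in this direction for 9.3% of all genes, and 0.388% were called lower. Within the second extraction wording, compound mutants averaged -0.12 from the Cilk1-/- library.

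*Cdk20*, which encodes the kinase that activates Cilk1, was not called in any comparison. Its log2 values were 2.79, 2.66, 2.58 and 2.73 in wild type, 2.65, 2.78, 2.86 and 2.68 in Cilk1-/-, and 2.75, 2.76 and 2.64 in the compound mutant. The ranges of the 3 genotypes overlapped. Its log2 fold change was 0.052 in Cilk1-/- (interval -0.089 to 0.19, adjusted p = 0.701, limma). In the compound mutant it was 0.028 (interval -0.12 to 0.18, adjusted p = 0.823), and 0.011 without replicate 1. These intervals exclude a change of 1.5-fold in either direction, on the log2(value + 1) scale.

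*Kif3a* encodes a motor subunit and the Cilk1 substrate, and it varied least among the 5 genes. Its log2 values were 4.24, 4.13, 4.09 and 4.16 in wild type, 4.15, 4.16, 4.20 and 4.15 in Cilk1-/-, and 4.24, 4.21 and 4.09 in the compound mutant. The Cilk1-/- values all lay inside the wild-type range. *Kif3a* had a log2 fold change of 0.013 in Cilk1-/- (interval -0.085 to 0.11, adjusted p = 0.910, limma). For the compound mutant it was 0.029 (interval -0.076 to 0.13, adjusted p = 0.731), and -0.00084 without replicate 1. The residual SD of *Kif3a* within genotypes was 0.0578, below the median of 0.0980 for genes with a mean of at least 1.

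*Kif3b* encodes the partner motor subunit. It had log2 values of 2.96, 2.93, 3.02 and 3.02 in wild type, 3.08, 3.12, 2.998 and 3.06 in Cilk1-/-, and 3.14, 2.85 and 3.13 in the compound mutant. Compound mutant replicate 2 gave the lowest of the 11 values and replicate 1 the highest. Its log2 fold change was 0.082 in Cilk1-/- (interval -0.062 to 0.23, adjusted p = 0.518, limma). For the compound mutant it was 0.060 (interval -0.095 to 0.22, adjusted p = 0.612). That value turned on single libraries: it was 0.16 without replicate 2 (adjusted p = 0.0509, limma), 0.011 without replicate 1 and 0.014 without replicate 3.

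*Kifap3* encodes the adaptor that links the motors to cargo, and it was the most abundant of the 5. Its log2 values were 4.75, 4.76, 4.68 and 4.83 in wild type, 4.85, 4.77, 4.80 and 4.71 in Cilk1-/-, and 4.77, 4.85 and 4.38 in the compound mutant. Compound mutant replicate 3 was lower than every other library. That library also had a sum of 6 erythroid markers of 886, against 2389 and 3203 in the other compound mutants, 2430 to 3138 in wild type and 2467 to 3449 in Cilk1-/-, and the part of this in the *Kifap3* value was not tested. The log2 fold change was 0.027 in Cilk1-/- (interval -0.17 to 0.22, adjusted p = 0.905, limma). For the compound mutant it was -0.086 (interval -0.29 to 0.12, adjusted p = 0.585). It turned to 0.055 without replicate 3 of that genotype, while it was -0.14 without replicate 1 and -0.18 without replicate 2.

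**Figure D2:**
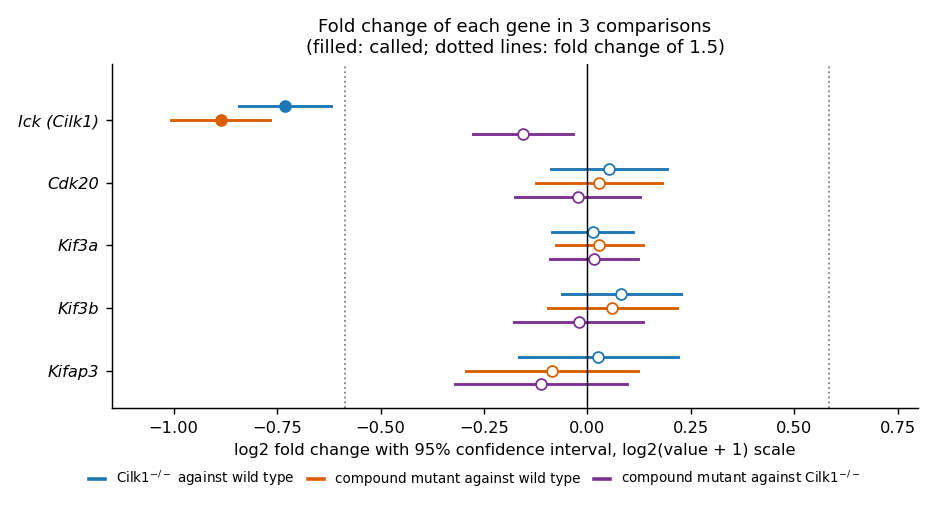
Log2 fold changes of the 5 genes with 95% confidence intervals in 3 comparisons, on the log2(value + 1) scale; filled points were called, open points were not, and dotted lines mark a fold change of 1.5. *Ick* at -0.73 and -0.89 is the one gene of the 5 past the line, and all intervals of the other 4 genes include 0.

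Because the kinesin-2 trimer holds one copy of each subunit, the proportions of the 3 subunit transcripts were compared within each library. In linear values, *Kif3a* exceeded *Kif3b* by a ratio of 2.62, 2.50, 2.26 and 2.37 in wild type, 2.26, 2.19, 2.49 and 2.28 in Cilk1-/-, and 2.29, 2.82 and 2.06 in the compound mutant. The means were 2.44 ± 0.159 (SD, n = 4), 2.30 ± 0.130 (SD, n = 4) and 2.39 ± 0.390 (SD, n = 3). The compound mutant had both the highest and the lowest ratio. The ratio of *Kifap3* to *Kif3a* was 1.55 ± 0.0752 (SD, n = 4) for wild type, 1.56 ± 0.0664 (SD, n = 4) for Cilk1-/- and 1.43 ± 0.176 (SD, n = 3) for the compound mutant. None of the 6 comparisons of these log2 ratios passed an exact two-sided permutation test, with p from 0.286 to 0.8 and an adjusted p of 0.8 for each. The smallest p this design allows is 0.0286 for 4 against 4 libraries and 0.0571 for 3 against 4, so the comparisons with the compound mutant could not have passed 0.05. After adjustment over the 6 tests, none of the 6 could have passed 0.05. These tests therefore cannot decide whether the proportions moved.

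**Figure D3:**
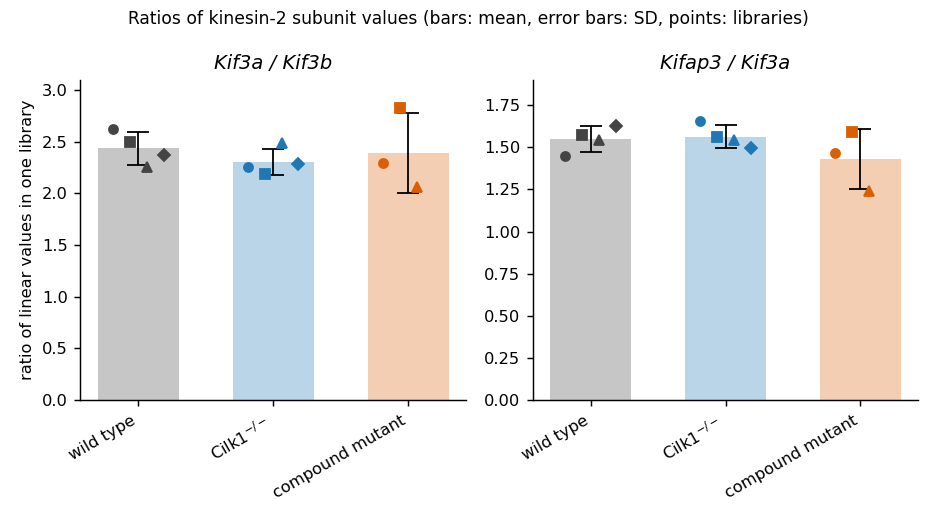
Ratios of linear values within a library, *Kif3a* over *Kif3b* (left) and *Kifap3* over *Kif3a* (right), on axes from 0; bars are means, error bars SD and points libraries. The Cilk1-/- means of 2.30 and 1.56 lie close to the wild-type means of 2.44 and 1.55, and the 3 compound mutant points spread most.

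The order of the 5 transcripts per gene length changed between genotypes through *Ick*. In wild type, mean linear values were 26.0 for *Kifap3*, 16.8 for *Kif3a*, 10.5 for *Ick*, 6.90 for *Kif3b* and 5.46 for *Cdk20*, and no neighbours in this order overlapped over the 4 libraries. In Cilk1-/-, *Ick* lay below *Kif3b*, with at most 6.27 against at least 6.99, and overlapped with *Cdk20*, which reached 6.25. In the compound mutant, *Ick* at 5.08 to 5.35 overlapped with *Cdk20* at 5.25 to 5.76. *Kifap3* above *Kif3a* above *Kif3b* was the order in all 3 genotypes.

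Relatives and regulators of Cilk1 were followed as a list of 6 genes. *Mak* and *Mok* encode the kinases most related to Cilk1, *Tbc1d32* and *Fam149b* encode partners in its ciliary function, *Ppp5c* encodes a phosphatase known to act on it, and *Bag6* encodes a chaperone. None of the 6 was called in any comparison, where 0.37%, 1.25% and 0.543% of all genes were called in Cilk1-/-, in the compound mutant and between the mutants. Their median log2 fold change was -0.036 in Cilk1-/-, and the compound mutant had 0.023. *Ppp5c* had the lowest value in Cilk1-/-, with 5.33, 5.46, 5.37 and 5.46 in wild type against 5.32, 5.25, 5.28 and 5.23 in Cilk1-/-. Its groups did not overlap, as for 10.7% of all genes in this direction, and its log2 fold change was -0.14 (adjusted p = 0.111, limma). *Tbc1d32* had the highest in Cilk1-/-, 0.11 (adjusted p = 0.486), and the lowest in the compound mutant, -0.074 (adjusted p = 0.616). *Mak* was near the floor in wild type at 0.24, 0.29, 0.19 and 0.32, and in the compound mutant it was 1.08, 0.39 and 0.30. The high value belonged to replicate 1, whose motile cilium markers were high as well. The log2 fold change of *Mak* in the compound mutant was 0.33 (adjusted p = 0.196, limma), and 0.084 without that library.

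The other genes of intraflagellar transport were 32 in number, namely *Kif3c* and *Kif17*, 18 genes of the IFT-B complex, 7 of IFT-A and 5 of dynein-2. IFT-B trains move with kinesin-2, and IFT-A and dynein-2 serve the return to the base. None was called in any comparison with limma, against 0.37% of all genes called in either direction in Cilk1-/-, 1.25% in the compound mutant and 0.543% between the mutants. At an unadjusted p under 0.05 there were 4 of 32 in Cilk1-/- and 4 of 32 in the compound mutant, against 20.7% and 26.7% of all genes. Their median log2 fold change was 0.0020 in Cilk1-/-. The compound mutant had a median of -0.017, or -0.046 without replicate 1. Of the 32 genes, 14 had their highest value of all libraries in that replicate.

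Among these, *Ift27*, which encodes a small GTPase of IFT-B needed for export of Hedgehog components from cilia, had the lowest log2 fold changes. Its values were 4.46, 4.61, 4.50 and 4.55 in wild type, 4.44, 4.24, 4.36 and 4.28 in Cilk1-/-, and 4.34, 4.30 and 4.13 in the compound mutant. All mutant libraries lay below all wild-type libraries, by little in Cilk1-/-. Groups did not overlap in this direction for 10.7% of all genes in Cilk1-/- and 9.05% in the compound mutant. The log2 fold change was -0.20 in Cilk1-/- (adjusted p = 0.103, limma). The compound mutant had -0.27 (adjusted p = 0.0369), which is under the fold change needed for a call. With the replicate block its adjusted p in the compound mutant was 0.161. The highest in Cilk1-/- was the IFT-B gene *Ttc30b* at 0.18 (adjusted p = 0.345), and the highest in the compound mutant was *Hspb11*, which encodes Ift25, the partner of Ift27, at 0.30 (adjusted p = 0.104). *Hspb11* read 3.87, 3.90 and 3.89 in the compound mutant, above 3.37, 3.76, 3.76 and 3.46 in wild type, but its wild-type values spread more than this gap. Groups without overlap in the higher direction made up 8.92% of all genes in that comparison.

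For the remaining lists the range was narrow. For *Kif3c*, an alternative kinesin-2 subunit, the log2 fold change was 0.066 in Cilk1-/- against 0.094 in the compound mutant, and for *Kif17*, a homodimeric kinesin-2, it was 0.14 against 0.020. In IFT-A, values ran from -0.087 for *Wdr35* to 0.13 for *Wdr19* in Cilk1-/-, and from -0.13 for *Ttc21b* to 0.19 for *Ift43* in the compound mutant. In dynein-2 they ran from -0.13 for *Wdr34* to 0.13 for *Wdr60* in Cilk1-/-, and from -0.066 for *Wdr34* to 0.096 for *Tctex1d2* in the compound mutant. All adjusted p-values named in this group were above 0.05 (limma), with 0.0705 for *Ift43* and 0.0781 for *Ttc21b* as the lowest.

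**Figure D4:**
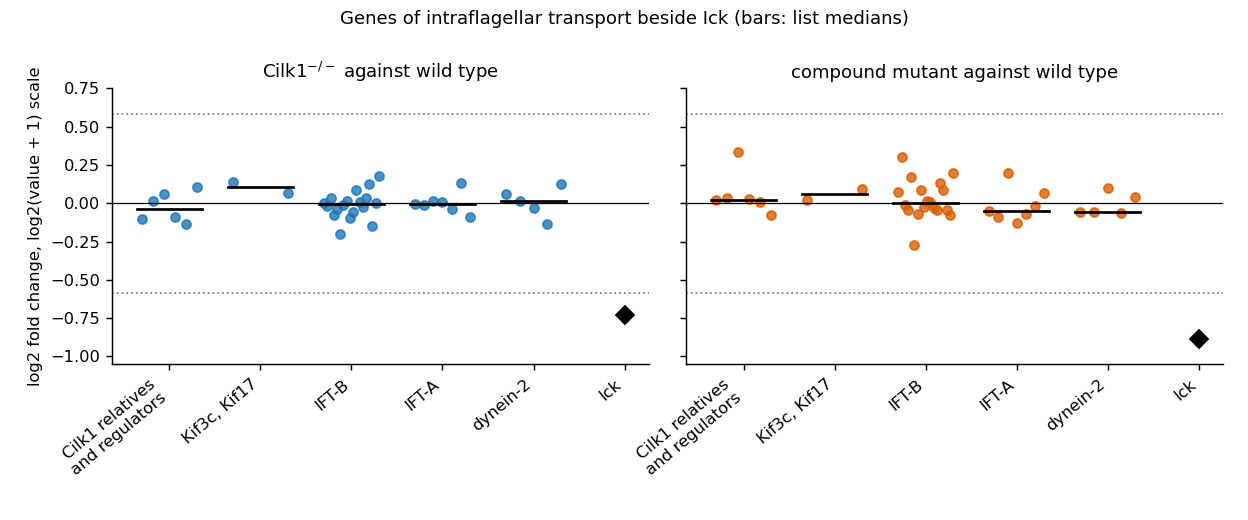
Log2 fold changes of Cilk1 relatives and regulators, other kinesin-2 genes, IFT-B, IFT-A and dynein-2 genes, beside *Ick* (black diamond), in Cilk1-/- (left) and the compound mutant (right) against wild type; each point is a gene, bars are list medians and dotted lines mark a fold change of 1.5. The 32 transport genes lie between -0.20 and 0.18 on the left and between -0.27 and 0.30 on the right, and *Ick* lies at -0.73 and -0.89.

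The genes beside *Ick* on chromosome 9 were examined next, 3 on each side. *Ick* spans 78109192 to 78172107 on the plus strand, and *Fbxo9*, which encodes an F-box protein of ubiquitin ligases, starts 126 bases away on the minus strand. The interval that holds both starts is shown because both genes are transcribed outward from it. The capitals mark the 2 annotated starts, in chr9:78109065-78109192 of GRCm38.
Interval from the Fbxo9 start to the Cilk1 start: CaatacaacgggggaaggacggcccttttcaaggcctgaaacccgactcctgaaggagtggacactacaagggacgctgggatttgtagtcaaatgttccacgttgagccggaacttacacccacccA
*Fbxo9* values were 3.57, 3.66, 3.57 and 3.67 in wild type, 3.73, 3.64, 3.74 and 3.68 in Cilk1-/-, and 3.76, 3.73 and 3.80 in the compound mutant. All compound mutant libraries lay above all wild-type libraries, as for 8.92% of all genes, and Cilk1-/- overlapped with wild type. Its log2 fold change was 0.084 in Cilk1-/- (interval -0.0049 to 0.17, adjusted p = 0.268, limma). The compound mutant had 0.15 (interval 0.053 to 0.24, adjusted p = 0.0643). It did not share the fall of *Ick*: the interval in Cilk1-/- excludes a change of that size. *Gclc* and *Elovl5* upstream, and *Gsta4*, *Dppa5a* and *Ooep* downstream, had log2 fold changes from -0.13 to 0.11 in Cilk1-/-, and none of the 6 neighbours was called in any comparison. In the compound mutant, *Gclc*, the catalytic subunit of glutathione synthesis, had 0.37 (adjusted p = 0.0634, limma) and the glutathione transferase *Gsta4* had 0.31 (adjusted p = 0.152), with the highest values of both, 4.09 and 5.32, in replicate 1.

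Genes with the pattern most like that of *Ick* were sought by Pearson's correlation over the 11 libraries among 13028 genes with a mean of at least 1. These correlations follow the genotype difference and share the libraries, so they are given as a description. The first was *Tspan11*, a tetraspanin, with r = 0.976. Its values were 3.30, 3.25, 3.27 and 3.28 in wild type, 2.54, 2.65, 2.62 and 2.65 in Cilk1-/-, and 2.57, 2.42 and 2.50 in the compound mutant. It was followed by *Ndp*, which encodes the Frizzled ligand norrin, with r = 0.962. *Ncald*, a neuronal calcium sensor gene, had r = 0.961, *Tinf2*, a telomere shelterin gene, r = 0.955, and *Best1*, a chloride channel gene, r = 0.954. All 5 were lower in every Cilk1-/- library than in any wild-type library. Their log2 fold changes in Cilk1-/- were -0.66, -0.87, -0.63, -0.18 and -0.70, the smallest in size being that of *Tinf2*.

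**Figure D5:**
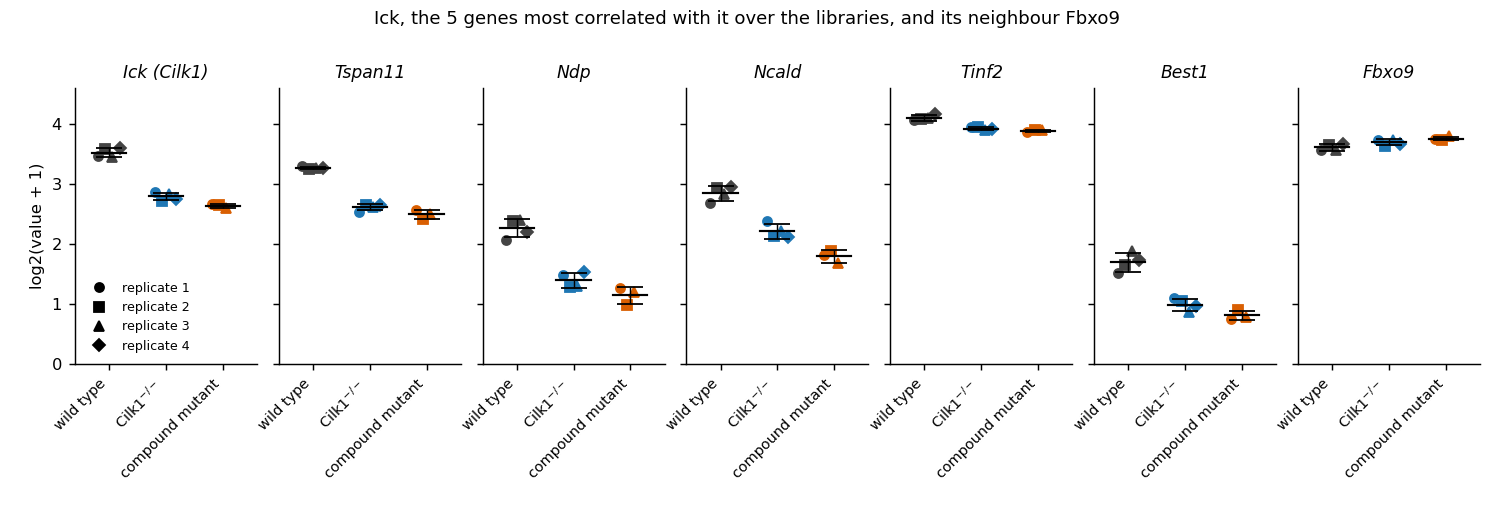
Values of *Ick*, the 5 genes most correlated with it over the 11 libraries, and its neighbour *Fbxo9*, as log2(value + 1) from 0; points are libraries, bars means and error bars SD. The 5 genes were chosen for this likeness; *Fbxo9*, which starts 126 bases from *Ick*, stays between 3.57 and 3.80.

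For the other genes, whose genotypes overlapped, the most similar genes were *Cc2d1a* for *Cdk20* (r = 0.942), *Gramd3* for *Kif3a* (r = 0.947), *Tdrd7* for *Kif3b* (r = 0.958) and *Capn6* for *Kifap3* (r = 0.988). None of these 4 genes was called against wild type. *Tdrd7* was higher in every Cilk1-/- library than in any wild-type library, as were 10.2% of all genes. *Capn6*, a calpain relative that binds microtubules, shared the low value of compound mutant replicate 3 with *Kifap3*, at 5.87 against 6.80 and 6.92 in the other compound mutants and 6.51 to 6.84 in wild type.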

How the data were processed

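The authors mapped paired-end reads to mm10 and made gene counts, with HISAT2 2.0.5 and featureCounts 1.5.0-p3 named in the submitters' processing notes, and FPKM were computed from counts and gene length. The deposited values are log2(value + 1), 1 column per library. In 257 genes a value lies below 0, which this formula cannot give for values of 0 or more. The deposited values are therefore not that formula alone. Whether a further adjustment was made is not described in the sources used here and was not tested. Wild-type and Cilk1-/- libraries of the same number vary in opposite directions around their genotype means. p-values measure the spread between these libraries. Counts and depth were not analysed here.

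Fold changes were computed with limma 3.58.1 in R 4.3.3 (trend and robust empirical Bayes) in one fit over 3 genotypes and all 16755 genes, with Benjamini-Hochberg adjustment over all genes, and a call needed an adjusted p under 0.05 with a change of 1.5-fold or more, the thresholds of the study's methods. Fold changes on this scale understate changes of genes with low values. The fit was run on simulated data with noise independent between libraries. Those data lack the link between same-numbered libraries, so they cannot test the p-values under that link. Subunit ratios were compared with exact permutation tests (scipy 1.17.1). The 5 genes and the gene lists were chosen with earlier results of these data known. Named from the lists were called genes and those with the highest and lowest fold change against wild type, as well as the most correlated genes and 3 neighbours of *Ick* on each side. *Fam149b* was matched by its synonym *Fam149b1*. Alternatives were a replicate block, the extraction wording as a term, other pseudocounts, filters and scalings, fits of 2 groups, and leaving out each library. Lists without compound mutant replicate 1 were added after the data were seen.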

Additional observations from a re-analysis of the deposited data

How the results depend on the processing

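Of 300 alternative values for the 5 genes in 3 comparisons, 289 kept direction and call, and 10 turned the sign of a value that was not called. *Ick* kept its calls against wild type with each library left out (log2 fold change -0.76 to -0.71 in Cilk1-/- and -0.91 to -0.86 in the compound mutant). One call was lost, *Ick* in the compound mutant where a replicate block held all compound mutants in block 4 (-0.90, adjusted p = 0.109). *Cdk20* in the compound mutant turned to -0.00059 under quantile normalization. With single libraries left out, values crossed 0 for *Cdk20* in the compound mutant (-0.0074 to 0.065) and against Cilk1-/- (-0.055 to 0.016), for *Kif3a* in Cilk1-/- (-0.0091 to 0.041), in the compound mutant (-0.00084 to 0.075) and between the mutants (-0.014 to 0.062), for *Kif3b* between the mutants (-0.071 to 0.074), and for *Kifap3* in the compound mutant (-0.18 to 0.055) and between the mutants (-0.20 to 0.029).

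The main fit did not pair libraries by replicate number. However, deviations of same-numbered wild-type and Cilk1-/- libraries correlated at -0.74, -0.89, -0.85 and -0.79, so the numbers do link these libraries. The origin of this link was not tested, and the fits with the replicate block are given because of it. No library correlated best with its own number, as the negative signs imply. The counts of called genes over all genes depended on the setting, and the cause was not tested. From 62 in Cilk1-/- (26 higher, 36 lower), 209 in the compound mutant and 91 between the mutants, they were 4, 26 and 2 with the replicate block, 4, 0 and 0 with the compound mutant in block 4 (limma; unadjusted p under 0.05 in 1277 and 996 genes), 37, 18 and 1 with the extraction wording as a term, 123, 547 and 294 with a pseudocount of 0.1 (70 higher and 53 lower in Cilk1-/-), 130, 34 and 1 in fits of 2 groups, and 409, 1102 and 558 with no fold threshold. Leaving out single libraries gave 15 to 95, 80 to 671 and 36 to 360. In Cilk1-/-, the libraries that moved the count by over 1.5 times were Cilk1-/- replicates 2 to 4 (15 to 19), wild-type replicates 2 to 4 (18 to 26) and compound mutant replicate 3 (95). In the compound mutant they were compound mutant replicates 2 and 3 (671 and 339) and wild-type replicates 2 and 4 (95 and 80). No result here rests on a read depth, which is unknown.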
